A study of Mus musculus with 16 samples.

Results

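The BCL2 family decides whether a cell keeps its mitochondria intact or dies, and 10 of its best-known mouse genes were followed through osteoclast formation: the survival genes Bcl2, Bcl2l1 and Mcl1, the effector genes Bax and Bak1, and the BH3-only genes Bid, Bcl2l11, Bmf, Bbc3 and Pmaip1. Members were taken by name from the array features that map to exactly 1 gene symbol, and where a gene had several, the one with the highest mean over the 16 arrays stood for it. This gave 9 of the 10 genes, out of 22180 genes with 1 symbol on the array; no feature carried Bax alone, so Bax is not analysed here. All 9 passed the filter on dim genes, which left 15526 genes for testing.

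The survival proteins BCL2, BCL-XL (from Bcl2l1) and MCL1 hold back the effectors BAX and BAK, which otherwise open the outer mitochondrial membrane, release cytochrome c and start the caspases. BH3-only proteins, among them BID, BIM (from Bcl2l11), BMF, PUMA (from Bbc3) and NOXA (from Pmaip1), sense stress or loss of growth factors and bind the survival proteins or the effectors directly. In osteoclasts, which are short-lived cells, BIM is known to limit survival after cytokine withdrawal, and BCL-XL is known to support it.

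The study exposed bone marrow-derived macrophages of 5-week-old male C57BL/6 mice to dimethyl α-ketoglutarate (αKG) at 1 mM, a dimethyl ester of the citric acid cycle metabolite α-ketoglutarate, or to DW, the control as the labels name it. All cultures had macrophage colony-stimulating factor (M-CSF), and all but those at 0 h also had RANKL, the cytokine that turns macrophages into bone-resorbing osteoclasts. Per the labels, 16 one-colour arrays fall into 8 groups of 2 arrays: αKG with RANKL in a fast phase at 0.5 and 1 h, an early one at 3 and 6 h, an intermediate one at 12 and 24 h and a late one at 48 and 72 h, DW with RANKL in the last 3 of these phases, and DW without RANKL at 0 h. After 0 h each arm has 1 array per time. The labels name no separate cultures or animals, so a p-value here reflects how far these arrays differ among themselves, which may be technical. Where the 8 groups are compared, that spread includes change within a phase. Where each time has its own term in the fit, the spread is how far the difference between the arms varies from time to time. Only the 0 h arrays lack RANKL, so RANKL and time since 0 h cannot be told apart, and a DW counterpart of the fast αKG arrays is not analysed here.

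The labelled cell types were present by their markers: the mean log2 signal of 9 measured macrophage markers lay between 9.72 and 10.76 in every array, and that of 10 osteoclast markers was 9.19 in αKG and 11.12 in DW at 72 h, against 5.20 and 5.13 at 0 h. Neutrophil markers were also present, with a list mean of 7.23 in both 0 h arrays, and of 5.07 in αKG and 4.88 in DW at 72 h. T and NK cell, B cell and erythroid markers had list means between 4.09 and 4.84 in every array, and stromal markers between 5.08 and 5.70. Of 6 genes listed for each of the first 3 types, 6, 5 and 2 were measured, so the erythroid mean rests on 2 genes. Over all genes, the DW 72 h array had the lowest mean correlation with the other arrays (0.9285), and the 2 arrays at 12 h lay at the low end of the second principal component (-27.9 for αKG and -27.59 for DW). The first component held 34.9% of the variance, against 23.2% for the second. On it the 12 h arrays stood at 15.86 in αKG and 16.5 in DW, and the 72 h arrays at 33.7 and 62.53. The 24 h arrays stood at -9.49 in αKG and -9.51 in DW, the DW 48 h array at 12.64, and all others below 0. The 12 and 72 h arrays thus stood highest on the first component, with the DW 48 h array close to those at 12 h. On the second, the 24 and 48 h arrays lay at the high end, at 18.82 and 28.01 in αKG and 27.2 and 36.05 in DW. The 72 h arrays lay at -1.62 in αKG and 4.52 in DW there. The part of these differences between arrays in the members' values was not tested. RNA came from whole cultures, so fewer cells of a type and less RNA per cell cannot be told apart.

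Promoter sequence is shown for Bcl2l1 and Bcl2l11, a survival gene and a BH3-only gene that moved in opposite directions, because both carry a motif of a factor that is known to act on them. From 250 bases before to 50 bases after each start site (RefSeq, GRCm38.p6), 15 promoters of 8 measured members were searched on both strands for GTAAACA (bound by FOXO factors), TGANTCA (AP-1), the E-boxes CATGTG and CACGTG, and the NF-kB consensus. The Bcl2l11 stretch is chr2:128125788-128126037 on the plus strand, just before the start site, with the FOXO motif (bases -227 to -221) in capitals. The Bcl2l1 stretch is chr2:152830718-152830967 on the minus strand, before the start site of 1 of its RefSeq transcripts, with the NF-kB match (bases -242 to -233) in capitals.
Bcl2l11: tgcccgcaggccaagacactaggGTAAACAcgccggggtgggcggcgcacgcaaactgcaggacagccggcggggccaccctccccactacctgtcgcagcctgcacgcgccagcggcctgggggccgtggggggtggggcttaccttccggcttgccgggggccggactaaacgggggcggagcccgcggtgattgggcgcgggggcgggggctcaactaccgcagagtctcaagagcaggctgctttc
Bcl2l1: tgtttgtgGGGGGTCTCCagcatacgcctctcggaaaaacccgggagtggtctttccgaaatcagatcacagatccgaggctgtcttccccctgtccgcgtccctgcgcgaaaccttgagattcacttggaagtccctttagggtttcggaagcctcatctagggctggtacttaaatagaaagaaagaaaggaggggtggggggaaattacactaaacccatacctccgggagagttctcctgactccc
Bbc3 also held the FOXO motif, an NF-kB match and the E-box CACGTG, each in the window of a different start site. Bmf held an NF-kB match that starts at its start site, and another Bcl2l1 promoter held the E-box CATGTG. No match was found for Bcl2, Mcl1, Bid or Bak1 in these windows, and Pmaip1 was not searched. Of 32851 mouse promoters of the same length, 3.65% held the FOXO motif, 4.51% the NF-kB consensus, 7.81% TGANTCA, 14.15% CATGTG and 7.15% CACGTG. These matches describe letters in the promoters and were not tested for binding.

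Among the survival genes, Bcl2l1 and Bcl2 dipped together at 12 h, recovered at 24 h and dipped again at 72 h in both arms, while Mcl1 stayed between 10.01 and 10.77 in log2 signal over the whole course. Bcl2l1, which encodes the survival protein BCL-XL, had log2 signals of 7.41, 7.61, 7.42, 7.48, 5.63, 7.29, 7.29 and 5.40 in αKG at 0.5, 1, 3, 6, 12, 24, 48 and 72 h. In DW it had 8.37 and 8.10 at 0 h and 7.55, 6.88, 5.49, 7.09, 6.66 and 5.14 at 3, 6, 12, 24, 48 and 72 h. The 12 and 72 h arrays of both arms were lower than every other array.

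Bcl2, the founding survival gene of the family, showed the same low arrays. Its log2 signals in αKG were 7.88, 7.98, 8.27, 7.72, 6.52, 7.42, 7.22 and 5.82 from 0.5 to 72 h. In DW they were 8.13 and 7.98 at 0 h and 8.17, 7.43, 5.40, 7.24, 6.92 and 6.03 from 3 to 72 h. The 12 h value in αKG lay 1.12 above that in DW, the widest gap between the arms for this gene.

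Mcl1, whose short-lived protein product holds back BAK and BIM, moved little in the feature used (range 0.76 log2 units), and its other feature ranged over 1.05. It had 10.17, 10.58, 10.49, 10.23, 10.59, 10.36, 10.28 and 10.70 in αKG from 0.5 to 72 h. In DW it had 10.01 and 10.06 at 0 h and 10.65, 10.66, 10.69, 10.46, 10.37 and 10.77 from 3 to 72 h. The 0 h arrays were the lowest, and both 72 h arrays were the highest.

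**Figure D1:**
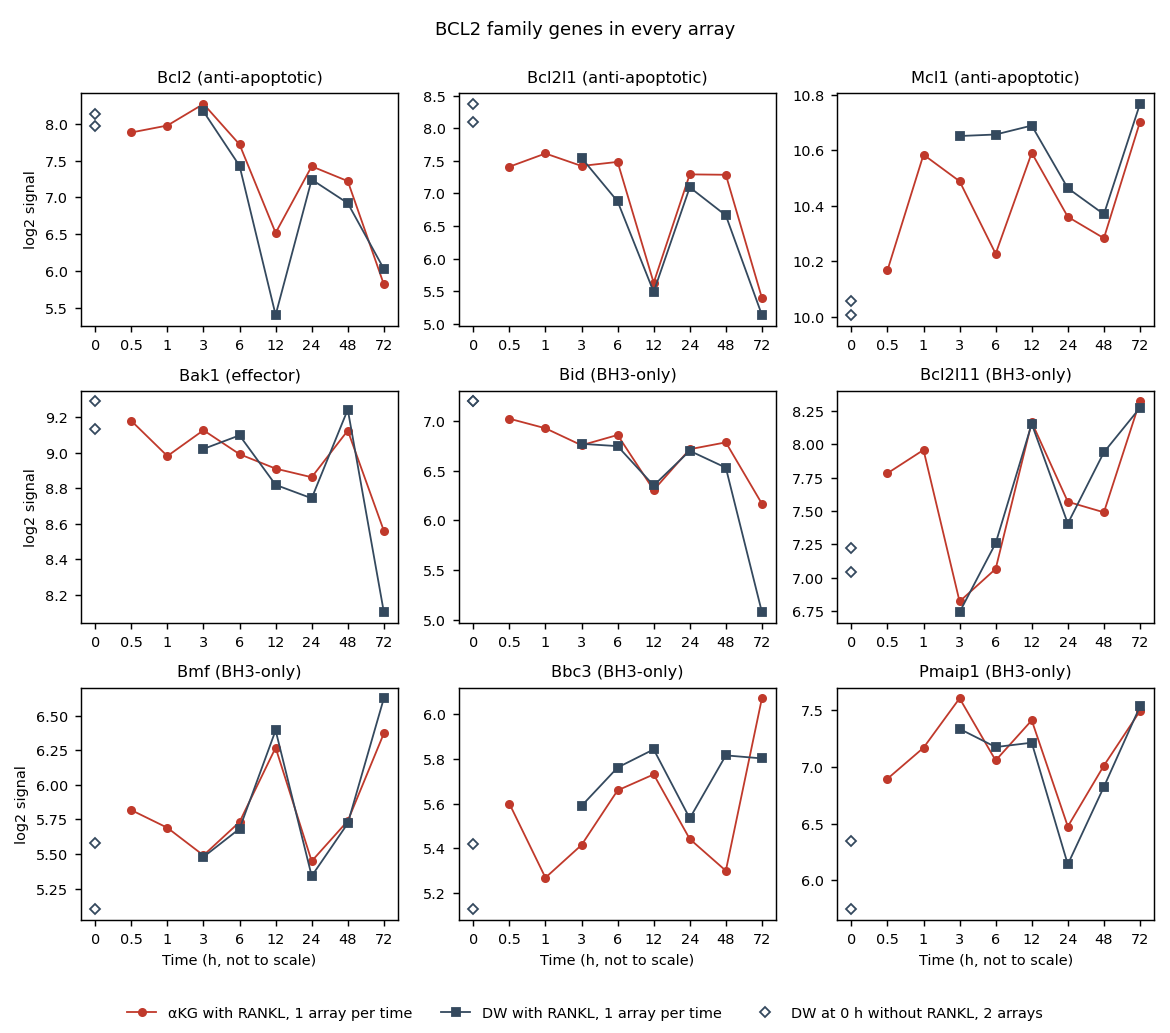
Log2 signal (vertical axes) of the 9 measured BCL2 family genes against time in hours (horizontal axes, times evenly spaced), with 1 point per array for αKG and DW. Bcl2 and Bcl2l1 are low at 12 and 72 h in both arms, where Bcl2l11 and Bmf are high.

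The BH3-only genes Bcl2l11 and Bmf ran the opposite way, with their highest arrays at 12 and 72 h. Bcl2l11, which encodes the pro-apoptotic BIM, had log2 signals of 7.78, 7.96, 6.82, 7.07, 8.16, 7.57, 7.49 and 8.32 in αKG from 0.5 to 72 h. In DW it had 7.04 and 7.22 at 0 h and 6.74, 7.26, 8.15, 7.41, 7.94 and 8.27 from 3 to 72 h. The 12 and 72 h arrays of both arms were above all others, and the 3 h arrays were the lowest.

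Bmf, whose product binds survival proteins after detachment or growth factor loss, was dimmer. It had 5.82, 5.69, 5.49, 5.73, 6.27, 5.45, 5.74 and 6.37 in αKG from 0.5 to 72 h. In DW it had 5.10 and 5.58 at 0 h and 5.48, 5.68, 6.39, 5.34, 5.72 and 6.63 from 3 to 72 h. The 4 arrays at 12 and 72 h were higher than all others.

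Pmaip1, which encodes NOXA, an antagonist of MCL1, was lowest at 0 h and 24 h. Its log2 signals in αKG were 6.90, 7.17, 7.61, 7.06, 7.41, 6.47, 7.01 and 7.49 from 0.5 to 72 h, against 5.74 and 6.34 at 0 h and 7.34, 7.18, 7.21, 6.14, 6.82 and 7.53 from 3 to 72 h in DW. Bbc3, which encodes the p53 target PUMA, lay between 5.27 and 6.07 in αKG and between 5.13 and 5.84 in DW. These ranges overlapped, and at a given time Bbc3 was lower in αKG than in DW at all of the shared times except 72 h, with the widest gap at 48 h (-0.51).

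Bid, which encodes the BH3-only protein that caspase-8 cleaves to link death receptors to mitochondria, was lowest at 72 h in both arms. It had 7.03, 6.93, 6.76, 6.86, 6.31, 6.72, 6.79 and 6.17 in αKG from 0.5 to 72 h, against 7.20 and 7.20 at 0 h and 6.77, 6.75, 6.35, 6.70, 6.53 and 5.08 from 3 to 72 h in DW. The DW 72 h array was the lowest by 1.09. The effector gene Bak1 lay between 8.56 and 9.18 in αKG and between 8.10 and 9.29 in DW, and its lowest array in each arm was that at 72 h.

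To test these swings, each time was compared with the one before it in both arms together (12 arrays, with 1 added effect of αKG), which assumes that both arms take the same step. These comparisons were chosen after the values had been seen, and all 5 neighbouring pairs of times from 3 to 72 h were tested. At 12 h against 6 h, 4 members passed limma's test at an adjusted p of 0.05: 2 of 9 rose, 2 of 9 fell, and 3.01% of all genes tested were called. Bcl2l1 fell by 1.62 ± 0.18 log2 units (SE, limma adjusted p = 0.00247), with steps of -1.85 in αKG and -1.39 in DW. Bcl2 fell by 1.62 ± 0.25 (adjusted p = 0.0118), with steps of -1.20 in αKG and -2.03 in DW. With the mean of both Bcl2 features, 1 of them dim, Bcl2 still passed but its steps shrank to -0.855 here, 0.774 at 24 h against 12 h and -0.584 at 72 h against 48 h. Both genes that fell encode survival proteins, and both that rose encode BH3-only proteins. Bcl2l11 rose by 1.00 ± 0.15 (adjusted p = 0.0108) and Bmf by 0.62 ± 0.12 (adjusted p = 0.0301), each in both arms. Bid, at -0.48 ± 0.24, did not pass (adjusted p = 0.359), nor did Mcl1 (0.20), Pmaip1 (0.20), Bbc3 (0.08) or Bak1 (-0.18). The members' median step was 0.08, against -0.01 over all genes tested. Leaving out 1 array, which assumes that the lone array left at that time varies like the others, kept Bcl2l1 and Bcl2l11 without DW 6 h, Bcl2l1 alone without αKG 6 h or DW 12 h, and Bcl2 alone without αKG 12 h.

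From 12 to 24 h the swing turned back, at a step where 20.7% of all genes tested were called. At 24 h against 12 h, 2 of 9 members rose and 3 of 9 fell (limma, adjusted over all genes tested). Bcl2l1 rose by 1.63 ± 0.18 log2 units (adjusted p = 0.000315), which is 3.17-fold in αKG and 3.04-fold in DW, and Bcl2 rose by 1.37 ± 0.25 (adjusted p = 0.00379). The 3 genes that fell all encode BH3-only proteins. Pmaip1 fell by 1.01 ± 0.13 (adjusted p = 0.0008), Bmf by 0.94 ± 0.12 (adjusted p = 0.000763) and Bcl2l11 by 0.67 ± 0.15 (adjusted p = 0.0109). Bid (0.38), Mcl1 (-0.23), Bbc3 (-0.30) and Bak1 (-0.06) did not pass. The call of Bcl2l11 was lost without the DW 12 h, DW 24 h or αKG 12 h array, and the other 4 were kept in all 4 leave-outs, with Bcl2 at 0.88 without DW 12 h. At the same step 7 of 10 neutrophil markers fell, 2 of 10 osteoclast markers rose and 2 of 9 macrophage markers fell, and their part in the members' steps was not tested.

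At 72 h against 48 h, 8 of the 9 members passed, 4 higher and 4 lower, where 19.6% of all genes tested were called. Bcl2l1 fell by 1.71 ± 0.18 log2 units (limma adjusted p = 0.000446), Bcl2 by 1.15 ± 0.25 (adjusted p = 0.0109), Bid by 1.04 ± 0.24 (adjusted p = 0.0161) and Bak1 by 0.85 ± 0.14 (adjusted p = 0.00301). These are 2 survival genes, a BH3-only gene and an effector gene, and those that rose are 3 BH3-only genes and the survival gene Mcl1. Bmf rose by 0.77 ± 0.12 (adjusted p = 0.00303), Pmaip1 by 0.60 ± 0.13 (adjusted p = 0.0134), Bcl2l11 by 0.58 ± 0.15 (adjusted p = 0.0238) and Mcl1 by 0.41 ± 0.10 (adjusted p = 0.0182). With the mean of both Mcl1 features, Mcl1 rose by 0.57 (limma adjusted p = 0.00706). The arms took unequal steps for Bid (-0.62 in αKG and -1.46 in DW) and Bak1 (-0.56 in αKG and -1.14 in DW), and that inequality within the step was not tested. Bbc3, at 0.38 ± 0.16, did not pass (adjusted p = 0.143), with 0.77 in αKG and -0.01 in DW, but passed without the DW 72 h array (0.61, adjusted p = 0.0413). Bcl2l1, Bak1 and Bmf passed in all 4 leave-outs; they were the only ones left without αKG 48 h, and Bcl2l11 passed with them without DW 48 h. Without αKG 48 h Bcl2l11 stood at 0.35, and without DW 72 h Bid passed at -0.52 and Pmaip1 did not pass, nor did Bcl2l11 without αKG 72 h. Beside these steps, 6 of 10 osteoclast and 3 of 9 macrophage markers rose, 4 of 10 neutrophil and 2 of 5 dividing cell markers fell, and the dividing cell list mean at 72 h was 8.81 in αKG and 7.34 in DW; their part was not tested.

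The quiet steps were 6 h against 3 h and 48 h against 24 h. At 6 h against 3 h, 0 of 9 members and 0% of all genes tested were called by limma, with 3 members and 1254 genes at an unadjusted p under 0.05. At 48 h against 24 h, 0 of 9 members and 1.11% of all genes tested were called, with 3 members and 2076 genes at an unadjusted p under 0.05. Pmaip1 was the closest there, 0.61 ± 0.13 higher at 48 h (adjusted p = 0.0723). Osteoclast markers were called higher at that step in 5 of 10 cases and neutrophil markers lower in 8 of 10.

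**Figure D2:**
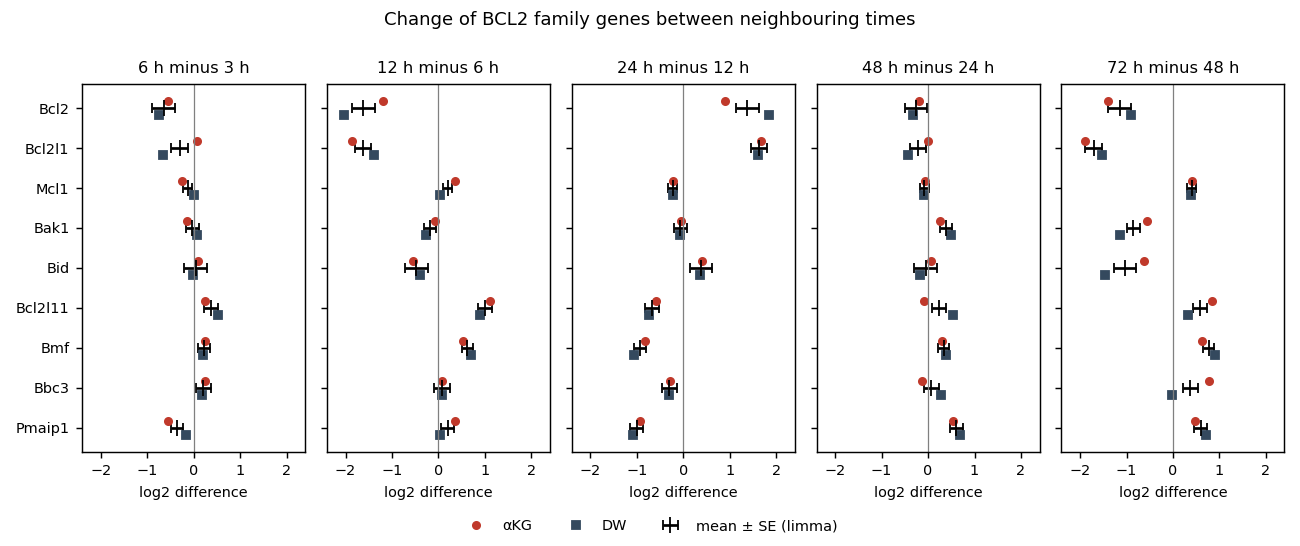
Log2 difference between each time and the one before it (later minus earlier, horizontal axes) for the 9 genes (listed on the vertical axis). Marks give the estimate over both arms with its standard error, and the step of each arm. Bcl2 and Bcl2l1 are below 0 at 12 against 6 h and 72 against 48 h and above 0 at 24 against 12 h, and Bcl2l11 and Bmf have the opposite signs.

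Each phase was also compared with the 0 h arrays, the only ones without RANKL, in 1 limma fit of all 8 groups, where the spread includes the change within a phase. These comparisons share the 0 h arrays. With αKG, 0 of 9 members passed in any phase: 0 in the fast phase, where 0% of all genes tested were called, 0 in the early phase (0.502% of genes), 0 in the intermediate phase (0.67%) and 0 in the late phase (1.43%). The lowest log2 difference with αKG was that of Bcl2l1 in the late phase, -1.90 ± 0.73 (adjusted p = 0.315), and the highest was that of Pmaip1 in the early phase, 1.29 ± 0.41 (adjusted p = 0.324). In the fast phase, 2 members had an unadjusted p under 0.05, Pmaip1 (0.99 ± 0.41) and Bcl2l11 (0.74 ± 0.33), as did 540 of the 15526 genes tested. The fast arrays carry both αKG and RANKL, and 0 h carries neither.

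With DW, 0 of 9 members passed in the early phase (0.341% of genes) and 0 in the intermediate phase (0.779%), and 1 passed in the late phase, where 6.64% of all genes tested were called. That gene was Bid, which fell by 1.40 ± 0.37 log2 units in DW late against 0 h (limma adjusted p = 0.0458). Without the 72 h array its value was -0.67, and it was not called then, nor without either 0 h array (adjusted p = 0.195 and 0.214), with no filter on dim genes or with only these 2 groups in the fit. Without the DW 48 h array, which leaves 1 array in DW late, Bid stood at -2.13, Bcl2l1 at -3.10, Bak1 at -1.11 and Mcl1 at 0.74. With both arrays, Bcl2l1 stood at -2.34 ± 0.73 (limma adjusted p = 0.0886) and Bcl2l11 at 0.98 ± 0.33 (adjusted p = 0.107). An unadjusted p under 0.05 was reached by 7 of 9 members and by 3277 of the 15526 genes tested. In the same comparison all 10 neutrophil markers tested fell, 8 of 10 osteoclast markers rose and 3 of 9 macrophage markers fell, and their part in Bid's value was not tested. Within an arm, late against early called 0 of 9 members in αKG, where 1.25% of genes were called. In DW it called 0 of 9 members, where 4.71% of genes were called. Bcl2l11 was 1.11 ± 0.33 higher in DW late than in DW early (limma adjusted p = 0.0805). Without the DW 48 h array, Bid stood at -1.68 and Bak1 at -0.96 in that comparison, from 1 DW late array.

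Whether αKG shifted these genes was tested at the 6 times present in both arms, by comparing arrays of the same time. Over all 6 times 0 of 9 members passed, where 0.399% of all genes tested were called. An unadjusted p under 0.05 was reached by 2 of 9 members and by 2061 of the 15526 genes tested. Bcl2l1 was 0.28 ± 0.10 log2 units higher in αKG than in DW (95% interval 0.05 to 0.51, limma adjusted p = 0.283), above 0 at 5 of 6 times. Mcl1 had a difference of -0.16 ± 0.06 (interval -0.28 to -0.03, adjusted p = 0.282), and was below 0 at 6 of 6 times. Bcl2 had a difference of 0.30 ± 0.14 (interval -0.02 to 0.62, adjusted p = 0.409) and was above 0 at 5 of 6 times. For Bcl2l11 the difference was -0.06 (interval -0.25 to 0.14) and for Bmf -0.03 (interval -0.19 to 0.13), both intervals holding 0. Bid (0.24), Pmaip1 (0.14), Bbc3 (-0.12) and Bak1 (0.09) had adjusted p-values between 0.483 and 0.678.

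By phase, 0 of 9 members passed in αKG against DW early (0.161% of genes called), intermediate (0.0966%) or late (4.27%). The nearest early value was that of Mcl1 (-0.30 ± 0.08, adjusted p = 0.315), with -0.16 at 3 h and -0.43 at 6 h. In the intermediate phase Bcl2 had 0.65 ± 0.21 (adjusted p = 0.396), with 1.12 at 12 h and 0.18 at 24 h. In the late phase Bid had 0.67 ± 0.18 (interval 0.27 to 1.08, adjusted p = 0.0749), with 0.26 at 48 h and 1.09 at 72 h, and Bcl2l1 had 0.44 ± 0.18 (adjusted p = 0.211), with 0.62 at 48 h and 0.26 at 72 h. With the 48 h pair left out, the late phase rests on 1 array per arm, with Bid at 1.09 and Bak1 at 0.46. The αKG effect late minus early, tested as a difference, called 0 of 9 members and 0.605% of genes. Bid stood at 0.62 ± 0.25 there (limma adjusted p = 0.304), and at 1.04 without the 48 h pair. Late αKG against DW also had 10 of 10 osteoclast markers lower, 2 of 9 macrophage markers higher and 2 of 10 neutrophil markers higher, and their part in the late values was not tested.

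**Figure D3:**
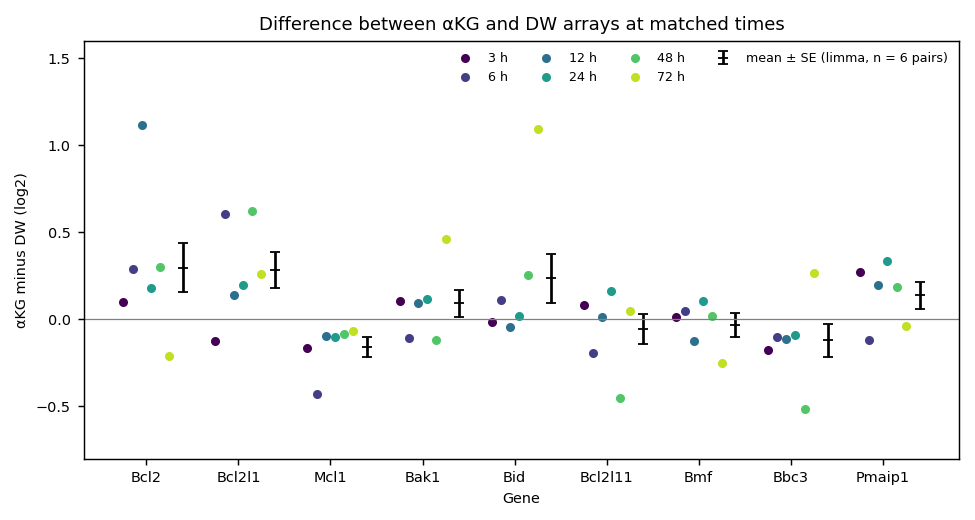
Log2 difference between αKG and DW (αKG minus DW, vertical axis) for the 9 genes (horizontal axis), with a coloured point for each of the 6 shared times. A black mark gives the mean over the 6 times and its standard error (limma). Mcl1 is below 0 at 6 of 6 times, Bcl2l1 is above 0 at 5 of 6, and Bid departs from 0 most at 72 h (1.09).

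Other genes of the mitochondrial and death receptor pathways were followed through lists covering other BCL2 family genes (8 tested of 16), apoptosome and caspase genes (12 of 14), inhibitors of apoptosis (5 of 5), death receptors and adaptors (6 of 7) and regulators of BCL2 proteins (15 of 16). Against 0 h, the change shared by the 6 phases from early to late was in Birc3, which encodes the inhibitor of apoptosis cIAP2, an NF-kB target. Birc3 had log2 signals of 7.28, 8.29, 8.88, 8.78, 9.12, 8.55, 8.34 and 8.86 in αKG from 0.5 to 72 h, against 6.32 and 6.45 at 0 h and 8.91, 9.03, 9.09, 8.88, 8.75 and 8.67 from 3 to 72 h in DW. It was 2.22 ± 0.30 higher in αKG late (limma adjusted p = 0.00464) and 2.32 ± 0.30 higher in DW late (adjusted p = 0.00125) than at 0 h, and passed in each early and intermediate phase with values of 2.45 to 2.60. In these phases 1 of 5 inhibitors of apoptosis was called, except in DW late, where Birc2, which encodes the related cIAP1, was the second with 1.36 ± 0.35 (adjusted p = 0.0418). Birc3 in DW late was called in every leave-out, the other Birc3 calls were lost without either 0 h array, and Birc2 was not called in any leave-out.

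The death receptor gene Fas rose by 2.61 ± 0.40 in αKG early against 0 h (adjusted p = 0.0189). Tnfrsf1a, the main TNF receptor, fell by 0.74 ± 0.15 in DW late against 0 h (adjusted p = 0.0147), and Endog, a mitochondrial endonuclease, rose by 0.80 ± 0.19 (adjusted p = 0.0254). In DW late against DW early, Endog rose by 0.89, and Tnfrsf1a fell by 0.73, Cbl, a ubiquitin ligase known to target BIM in osteoclasts, by 0.64, and Bcl2a1a by 1.19 ± 0.22 (adjusted p = 0.0123). Bcl2a1a has near-identical copies in the mouse genome, so its value may mix them. Each call in this paragraph was lost in at least 1 leave-out, namely without the DW 72 h array for all those in DW late and without any 1 of the αKG early or 0 h arrays for Fas, and Cbl was also not called with no filter on dim genes or with quantile normalization. In αKG late against αKG early, in αKG fast against 0 h, and in αKG against DW over the 6 times or in any phase, 0 of 46 of these genes passed; the nearest over the 6 times was Mdm2, 0.29 ± 0.05 higher in αKG (adjusted p = 0.0726).

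At the steps between times, none of the 46 passed at 6 h against 3 h or at 12 h against 6 h. At 24 h against 12 h, the counts were 3 higher and 2 lower of 15 regulators, 1 higher and 1 lower each of 12 apoptosome and caspase genes and of 8 other BCL2 family genes, 1 higher of 6 death receptor genes and 1 lower of 5 inhibitors. That is 11 of 46, close to the 20.7% of all genes called at this step, so the number of calls is no result about these lists. Mdm2, the ubiquitin ligase of p53, rose by 1.13 ± 0.09 (limma adjusted p = 0.000106), and Cycs, which encodes cytochrome c, rose by 0.86 (adjusted p = 0.0157). Foxo3, a transcription factor known to act on the Bcl2l11 and Bbc3 promoters, fell by 0.79 ± 0.13 (adjusted p = 0.00278), and the executioner caspase gene Casp6 fell by 0.81 ± 0.16 (adjusted p = 0.00634). Foxo3 had log2 signals of 7.29, 6.77, 6.65, 6.86, 7.10, 6.44, 6.57 and 7.05 in αKG from 0.5 to 72 h, against 6.98 and 7.18 at 0 h and 6.70, 6.80, 7.46, 6.54, 6.82 and 7.41 from 3 to 72 h in DW. Its call at 24 h against 12 h and that of Mdm2 held in all 4 leave-outs, while Casp6 and Cycs each lost theirs in some. The 12 h arrays of Foxo3 were above those at 6 and 24 h in both arms, although its step at 12 h against 6 h, 0.45, did not pass (adjusted p = 0.106).

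At 48 h against 24 h, Mdm2 fell by 0.64 ± 0.09 (limma adjusted p = 0.0166), the only one of the 46 called. At 72 h against 48 h, 1 regulator rose and 3 fell of 15, 1 other BCL2 family gene rose and 1 fell of 8, and 2 of 6 death receptor genes fell. That is 8 of 46, close to the 19.6% of all genes called at this step, so the number of calls is again no result about these lists. Foxo3 rose by 0.54 ± 0.13 (adjusted p = 0.021), Mdm2 fell by 0.59 (adjusted p = 0.00304), Atf4, the transcription factor of the integrated stress response, fell by 0.99 ± 0.23 (adjusted p = 0.0156), and Bik, a BH3-only gene, fell by 0.47 ± 0.11 (adjusted p = 0.0159). Mdm2 had 9.45, 9.81, 9.88, 9.61, 9.39, 10.53, 9.89 and 9.42 in αKG from 0.5 to 72 h, against 9.13 and 9.07 at 0 h and 9.57, 9.28, 9.20, 10.32, 9.67 and 8.95 from 3 to 72 h in DW. Its peak in both arms was the 24 h array. The 72 h call of Mdm2 held in all 4 leave-outs, its 48 h call in 0 of 4, and those of Foxo3, Bik and Atf4 were each lost without the DW 48 h array, with Atf4 at -0.63.

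**Figure D4:**
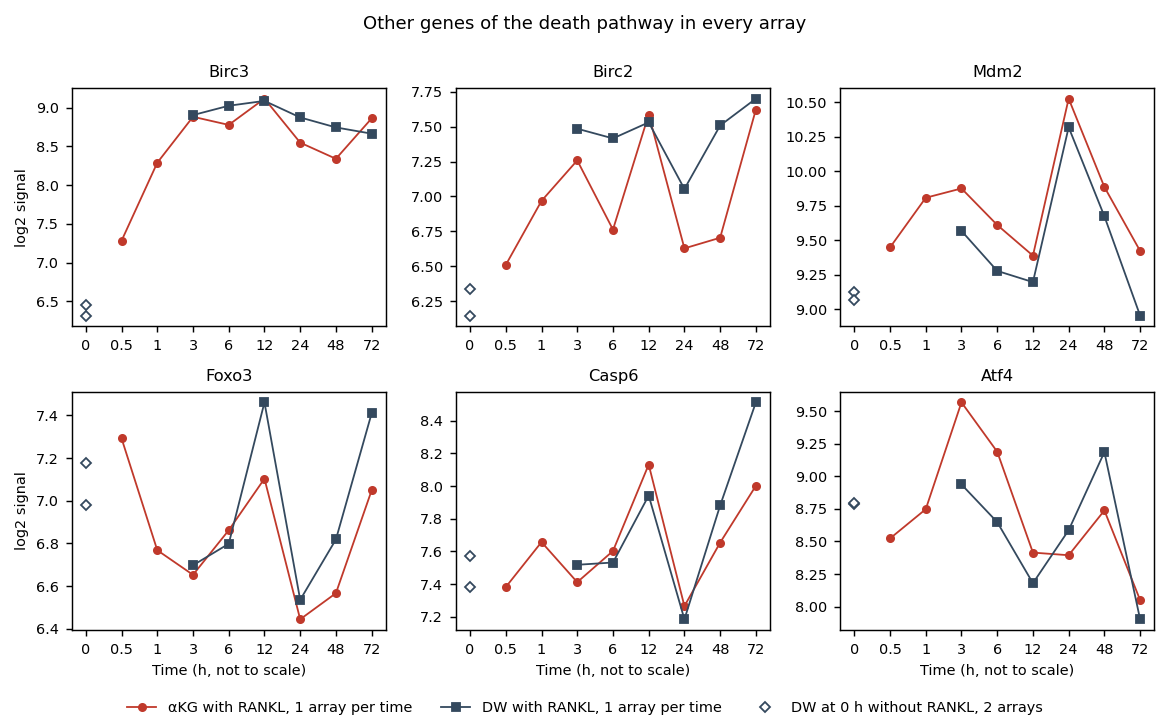
Log2 signal (vertical axes) of Birc3, Birc2, Mdm2, Foxo3, Casp6 and Atf4 against time in hours (horizontal axes, times evenly spaced), with 1 point per array for αKG and DW. Birc3 is above its 0 h level in every later array, Mdm2 peaks at 24 h, and Foxo3 is higher at 12 h than at 6 and 24 h in both arms.

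The members' likeness to each other and to other genes is described by Pearson's r over the 16 arrays, which share 2 arms and 1 time course. Bcl2 and Bcl2l1 had r = 0.93, Bak1 and Bid 0.88, Bcl2l1 and Bid 0.87, and Bcl2l11 and Bmf 0.80. Bcl2l1 had -0.91 with Bmf and -0.79 with Bcl2l11, and Bcl2 had -0.85 with Bmf and -0.81 with Bcl2l11. The signs did not follow the roles, since Bcl2 had 0.75 with the BH3-only gene Bid and 0.66 with the effector gene Bak1, and Mcl1 had -0.75 with Bcl2l1 and -0.58 with Bcl2. Mcl1 and Pmaip1, whose products bind each other, had 0.74.

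Of all other genes tested, those most like Bcl2l1 were the chemokine genes Ccl2 and Ccl7 (both 0.97) and Etv5 (0.96), and those most like Bcl2 were Elmo1 (0.96), Slc3a2 (0.96) and Agfg1 (0.95). Mcl1 was most like Birc2 (0.91), Zfp456 (0.90) and Bcl3 (0.89). Bcl2l11 was most like Tut4 (0.94), Rnf167 (0.92) and Hdac5 (0.88), and Bmf most like Pcmtd2, Paip2 and Herc4 (0.95 to 0.96). Bid was most like Kcnab2 (0.99), Mbd2 (0.98) and Tubb5 (0.97), Bak1 most like Psmc1, Ssr1 and Ywhaq (0.91 each), and Pmaip1 most like Ranbp10 (0.90), Zfp790 (0.88) and Bmt2 (0.86). Bcl2 and Mcl1 each had another single-symbol feature on the array: that of Bcl2 was dim (mean log2 signal 3.77) and had r = 0.30 with the feature used, and that of Mcl1 (mean 7.21) had r = 0.89.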

How the data were processed

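Gene expression was read from a table of log2 values for 33793 array features in 16 samples, which the authors deposited. Per the labels' protocols, total RNA was converted to biotin-labelled sense cDNA with a whole-transcript terminal labelling kit. Values ran from 0.61 to 13.25, which is why base 2 was assumed, and array medians lay between 4.84 and 4.93. How the authors summarised and normalized the features, and on which build, is not given in the sources used here. No detection call per feature was used, and precision rests on the 16 arrays.

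Of the features, 23521 had 1 gene symbol, 1814 several and 8458 are unnamed here. For 1082 of 22180 genes the feature with the highest mean was kept, and the dimmest 30% of genes by mean (4.34 or less) were dropped. The test was limma 3.58.1 under R 4.3.3, using lmFit and trended eBayes, with Benjamini-Hochberg adjustment over 15526 genes and a threshold of 0.05; the code was tested on simulated data. Phases were compared in 1 fit of 8 groups, and αKG with DW in 12 arrays with time as a block. Pairing by time came from the labels: after subtracting arm means, same-time arrays had r = 0.50 to 0.75, for each DW array its highest r with any αKG array. Errors given as ± are standard errors.

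Members and lists were chosen with earlier results of these data known. Named pathway genes are up to 4 per comparison with the smallest p past the threshold, and likeness names the 3 genes of highest r for each member called at least once, with predicted and small RNA genes skipped. Alternatives changed the filter, the normalization, the variance model, the use of several features per gene, the arrays in the fit and the time block, and left out 1 array or pair at a time.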

Additional observations from a re-analysis of the deposited data

How the results depend on the processing

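Counting only the members' called values and their values in αKG against DW over the 6 times, 293 kept direction and side of the threshold under an alternative, 30 were no longer past it and 2 changed sign. Members not called in a comparison could gain a call there, and the counts of members called include these. In αKG against DW over the 6 times, Bcl2l11 ranged from -0.1001 to 0.0226 in the leave-outs (above 0 without the 48 h pair) and Bmf from -0.0601 to 0.0121 (above 0 without the 72 h pair). For the named pathway genes, 211 kept both, 69 lost the call and 1 gained it (Mdm2 in αKG against DW, without the 72 h pair). Members called numbered 1 to 2 in the leave-outs at 12 h against 6 h (4 with all arrays), 3 to 8 at 72 h against 48 h (8 with all arrays), 0 to 4 in DW late against 0 h (1 with all arrays), 0 to 2 in DW late against DW early, 0 to 2 in αKG against DW late and 0 to 1 for the αKG effect late minus early. With only the 2 groups compared in the fit, 2 members were called in αKG fast (Bcl2l1, Bcl2l11), 2 in αKG early (Bcl2l1, Pmaip1), 3 in DW early (Bcl2l1, Mcl1, Pmaip1) and 0 in DW late, each against 0 h. With no filter on dim genes, 0 were called in DW late. The causes were not tested.

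Counts over all genes moved more. With only the groups compared, they were 96 (0 in the fit of 8 groups) for αKG fast, 794 (78) for αKG early, 0 (104) for αKG intermediate, 775 (53) for DW early, 0 (121) for DW intermediate and 115 (1031) for DW late against 0 h, 47 (194) for αKG late against early and 38 (732) for DW late against early. With no time block, αKG against DW called 20 (62 with the block) over the 6 times, 0 (25) early, 1 (15) intermediate, 7 (663) late and 0 (94) for late minus early. Without the intensity trend these were 32, 6, 5, 323 and 17, and dropping the dimmest 50% of genes gave 5 early. At 6 h against 3 h, 2 were called after centring on array medians and 3 with robust eBayes (0 in the main setting). Leave-outs gave 38 to 283 (468) at 12 h against 6 h, 1336 to 2240 (3209) at 24 h against 12 h, 26 to 189 (173) at 48 h against 24 h, 1167 to 3941 (3039) at 72 h against 48 h and 326 to 1882 (663) for αKG against DW late. They gave 4 to 174 (62) over the 6 times, 0 to 2 (25) early, 0 to 1 (15) intermediate and 1 to 1504 (94) for late minus early. Against 0 h they gave 251 to 2179 (1031) in DW late, 4 to 67 (121) in DW intermediate, 1 to 2 (53) in DW early, 29 to 116 (222) in αKG late, 0 to 24 (104) in αKG intermediate and 1 to 12 (78) in αKG early, and within an arm 149 to 1725 (732) in DW and 3 to 118 (194) in αKG.

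Arrays of a phase are from different times, which widens the spread in the fit of 8 groups. Without background values per feature, the signal of dim members such as Bbc3 and Bmf has no stated floor.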
